A study of Caenorhabditis elegans with 2 samples.

Results

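The genes described here are 8 basic leucine zipper (bZIP) transcription factor genes of Caenorhabditis elegans, zip-2, zip-3, zip-1, zip-10, cebp-1, cebp-2, atfs-1 and xbp-1, and 2 response genes of ZIP-2, irg-1 and irg-2. These 10 genes were taken from 19973 protein-coding genes and were picked because zip-2, zip-3 and cebp-1 hold peaks of rank 1, 6 and 8 by signal. The ranks of those peaks and every signal from the same lists are therefore given as descriptions, with no test. All 10 names were found in the WBcel235 gene annotation, the same assembly as ce11. A gene's window ran from 2 kb upstream of its start to its end, and a peak belonged to the gene when its summit lay in that window.

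The measurements were peaks from ChIP-seq, in which DNA bound by a protein is recovered with an antibody and sequenced. The protein was the nuclear hormone receptor NHR-129 carrying a green fluorescent tag (eGFP), expressed from the integrated transgene wgIs339 in strain OP339, which also carries the allele unc-119(ed3) on III. Whole animals of both sexes were used at the L2 larval stage, so peaks from different tissues cannot be told apart. There was 1 group with 2 biological replicates, each from a biosample of its own, and no comparison group. Library fragments were 150 to 350 bp per the labels, the labels name nhr-129 as the antibody, and the promoter that drives the fusion is not stated in the labels. Depth per library is not given here, and the control library was not analysed here.

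bZIP proteins bind DNA as dimers through a basic region beside a leucine zipper, and members of the C/EBP, ATF and CREB branches recognise related palindromes. In C. elegans several of them act in stress responses. ZIP-2 induces irg-1 when Pseudomonas aeruginosa infects the worm or translation is blocked, with CEBP-2 as its partner. CEBP-1 acts downstream of the kinase DLK-1 in axon regeneration, ATFS-1 drives the mitochondrial unfolded protein response and ZIP-3 represses it, XBP-1 drives the response of the endoplasmic reticulum, ZIP-1 acts in the response to intracellular pathogens, and ZIP-10 acts in a cold-induced programme of organismal death.

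The sequences below are the windows of up to 100 bp each side of the summit for the strongest pooled call of 8 genes and for the second peak of zip-2, shown because they hold the 8-letter matches that the motif results turn on. They come from the WBcel235 genome, run 5′ to 3′ on the sense strand of the gene, and were shortened where the window ran into an untranslated exon. Capitals mark a match to TGATGCAA on either strand, or to the palindrome TTGCGCAA with at most 1 mismatch.
zip-2, intron 1, chrIII:833796-833996, plus strand: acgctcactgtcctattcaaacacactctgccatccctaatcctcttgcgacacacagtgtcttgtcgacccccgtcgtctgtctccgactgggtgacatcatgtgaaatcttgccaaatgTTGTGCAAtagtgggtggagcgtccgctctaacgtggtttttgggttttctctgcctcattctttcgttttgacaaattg
zip-2, upstream, chrIII:832872-832981, plus strand: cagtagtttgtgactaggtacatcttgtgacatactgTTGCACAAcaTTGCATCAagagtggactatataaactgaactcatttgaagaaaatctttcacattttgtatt
zip-3, intron 2, chrII:13954161-13954361, minus strand: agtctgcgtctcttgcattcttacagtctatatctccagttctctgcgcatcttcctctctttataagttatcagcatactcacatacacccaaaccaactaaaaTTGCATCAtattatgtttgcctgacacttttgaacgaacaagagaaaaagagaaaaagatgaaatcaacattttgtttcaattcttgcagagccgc
cebp-1, upstream, chrX:1454439-1454639, minus strand: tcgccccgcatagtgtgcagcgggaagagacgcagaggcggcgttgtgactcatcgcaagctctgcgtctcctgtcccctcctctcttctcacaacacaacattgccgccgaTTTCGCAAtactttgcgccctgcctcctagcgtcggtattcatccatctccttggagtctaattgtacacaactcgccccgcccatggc
irg-2, upstream, chrV:4042022-4042167, plus strand: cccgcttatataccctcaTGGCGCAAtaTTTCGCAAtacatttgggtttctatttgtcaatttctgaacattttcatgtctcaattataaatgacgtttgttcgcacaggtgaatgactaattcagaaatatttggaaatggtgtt
xbp-1, upstream, chrIII:4193676-4193808, plus strand: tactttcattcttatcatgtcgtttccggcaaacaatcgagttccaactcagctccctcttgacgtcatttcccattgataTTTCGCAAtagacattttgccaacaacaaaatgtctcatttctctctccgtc
atfs-1, upstream, chrV:14193517-14193662, plus strand: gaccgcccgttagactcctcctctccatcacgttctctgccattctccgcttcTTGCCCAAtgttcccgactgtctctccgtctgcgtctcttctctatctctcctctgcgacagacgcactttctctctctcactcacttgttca
zip-10, upstream, chrV:11650763-11650949, minus strand: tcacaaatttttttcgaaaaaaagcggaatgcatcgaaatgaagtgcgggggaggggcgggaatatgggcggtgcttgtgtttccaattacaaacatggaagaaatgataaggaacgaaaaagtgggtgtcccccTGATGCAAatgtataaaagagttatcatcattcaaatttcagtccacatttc
irg-1, upstream, chrV:3523326-3523526, plus strand: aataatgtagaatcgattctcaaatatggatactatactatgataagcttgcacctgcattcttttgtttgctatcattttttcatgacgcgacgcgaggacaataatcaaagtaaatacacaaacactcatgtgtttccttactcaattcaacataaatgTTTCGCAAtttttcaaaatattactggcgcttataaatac
Read together, cebp-1, irg-2, xbp-1 and irg-1 carry the same 8 letters, TTTCGCAA, in the same orientation relative to the gene. The irg-2 summit is nearer to the start of C49G7.10 on the other strand, and the irg-1 call is a weak one below the threshold. The zip-3 and zip-10 windows and the upstream window of zip-2 carry TGATGCAA or its complement TTGCATCA.

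Peaks came in 2 kinds of list. The authors' thresholded list holds 6626 peaks and was cut on the irreproducible discovery rate, a measure of how well replicates rank the same peaks alike. The relaxed pooled list, called on both replicates together, and the list of each replicate hold 30000 calls each, background included. Signals of the thresholded list equal the 6626 highest of the pooled list, so a thresholded peak need not be strong in each replicate. A call was present in both replicates for 6593 of them. The signal is the authors' value per peak on an unstated scale, and rank 1 is the highest. Signals of the thresholded peaks ran from 63.4 to 6467, and the deposited −log10 q-value was 4.15 for each of them.

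Of the 10 genes, 8 had a thresholded summit in the window, against 28.0% of all coding genes. All 10 had a summit of the pooled list, against 61.3% of all coding genes. The genes without a thresholded summit were zip-10 and irg-1. One of the 20 strongest peaks lay in the window of 4 of the 10, zip-2, zip-3, cebp-1 and irg-2, against 0.115% of all coding genes. These shares follow from how the genes were picked, and nothing is read from their difference.

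The windows of the 10 genes covered 50.49 kb and held 12 thresholded summits, or 0.238 per kb, against 0.0661 per kb over the genome. In the relaxed lists they held 30 pooled calls, 33 calls of replicate 1 and 28 calls of replicate 2. That is 0.594, 0.654 and 0.555 per kb, against 0.299 per kb over the genome in each list. The genes were picked for high peaks, and the genome value includes sequence outside gene windows, so nothing is read from these differences. The windows were 2503 to 13640 bp long with a median of 3485.5 bp, and the median of all coding genes was 4027 bp. In each window 1 call held most of the pooled signal, with a share of 78.5% at zip-1 as the lowest and 98.8% at irg-2 as the highest among the genes with more than 1 call. The plot of calls by distance shows each of these windows.

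**Figure D1:**
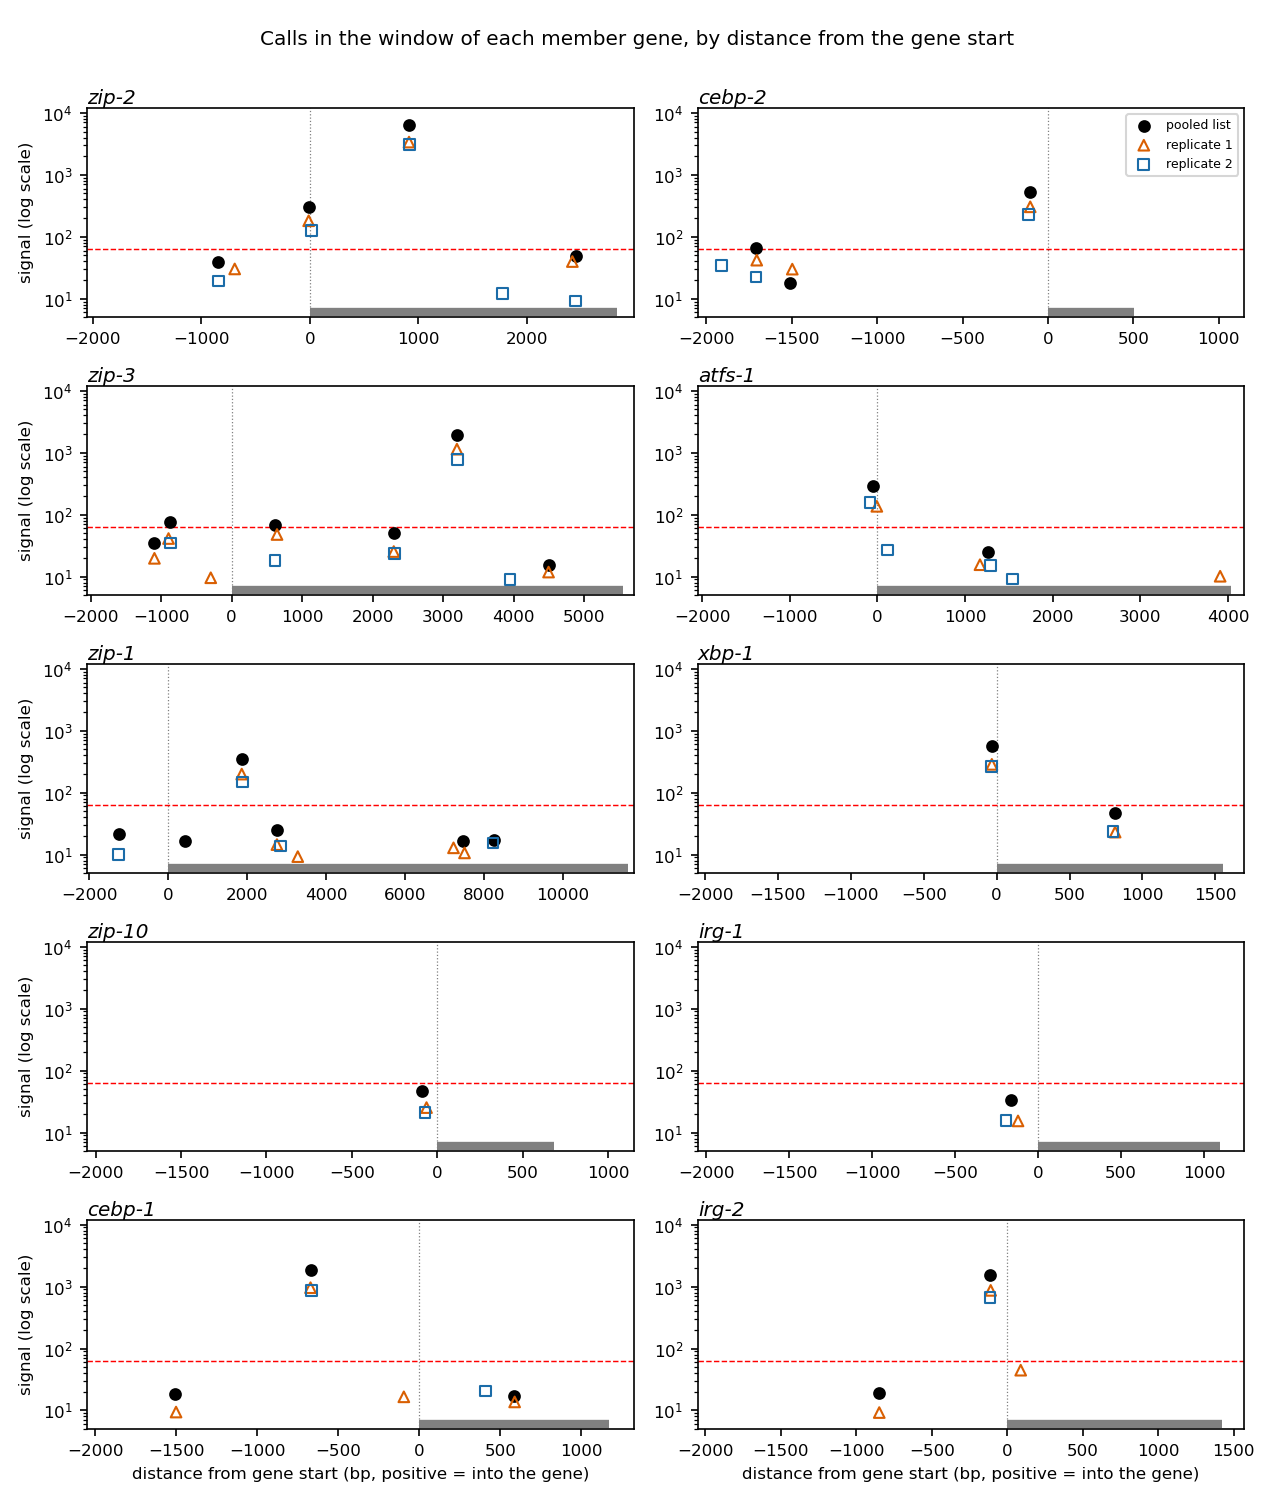
Signal of every call in the window of each of the 10 genes (log scale) against distance of its summit from the gene start in bp, for the pooled list (filled circles), replicate 1 (triangles) and replicate 2 (squares). The grey bar is the gene and the dashed line the lowest thresholded signal, 63.4. In each window with more than 1 position, 1 position stands above the rest in all 3 lists.

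zip-2 (WBGene00019327, chrIII:832982-835814, plus strand) held the highest signal of the data. Its main peak, chrIII:833612-834150, had a signal of 6467 in the pooled list, 3380 in replicate 1 and 3104 in replicate 2, a mean of 3242 ± 195 over the replicates (SD, n = 2). It ranked 1 in all 3 lists. The replicate summits were 3 bp apart, and log2 of replicate 1 over replicate 2 was 0.12. The next peak, 387 bp upstream of the elongation factor gene eef-1A.2, had a pooled signal of 5056, so the zip-2 peak was 1.28 times as high in the pooled list, 1.22 times in replicate 1 and 1.36 times in replicate 2. The summit lay in intron 1 of the longest transcript, 835 bp after an exon and 192 bp upstream of the start of the transcript K02F3.4.1. It also lay 1619 bp upstream of ceeh-1, an epoxide hydrolase gene on the other strand.

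The second peak of zip-2, chrIII:832857-833073, had its summit 10 bp upstream of the gene start. Its signal was 305 in the pooled list, 181 in replicate 1 and 127 in replicate 2, with ranks of 775, 651 and 958. The same summit was 12 bp upstream of the non-coding RNA gene linc-37, 463 bp upstream of the small nucleolar RNA gene K02F3.15 and 695 bp upstream of ceeh-1, and the lists do not assign it to 1 of them. A weaker call in a coding exon, 2455 bp after the gene start, had a pooled signal of 48.3 and did not pass the threshold. That call differed between replicates, with 39.8 in replicate 1 and 9.21 in replicate 2.

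zip-3 (WBGene00012330, chrII:13951904-13957457, minus strand) had 3 thresholded summits. The strongest, chrII:13954088-13954471, had a signal of 1905 in the pooled list, 1143 in replicate 1 and 781 in replicate 2 (mean 962 ± 256, SD, n = 2), with ranks of 6, 6 and 9. It lay in intron 2, 3196 bp into the gene and 95 bp before the next exon, and the nearest transcript start was 1731 bp away. Unlike the main zip-2 peak, it was thus not close to an annotated start. The other thresholded summits of zip-3 were low. One, 869 bp upstream, had a signal of 75.7 in the pooled list, 41.2 in replicate 1 and 34.9 in replicate 2. The other, 617 bp into the gene in intron 1, had 69.1 in the pooled list, 47.9 in replicate 1 and 18.3 in replicate 2, a log2 difference of 1.39. In replicate 2 that call ranked 11607, with a −log10 q-value of 1.06.

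cebp-1 (WBGene00016997, chrX:1452695-1453868, minus strand) had 1 thresholded peak, chrX:1454338-1454799. The signal was 1826 in the pooled list, 959 in replicate 1 and 871 in replicate 2 (mean 915 ± 62.7, SD, n = 2), and the ranks were 8, 8 and 7. The summit was 671 bp upstream of the gene, and the replicate summits were 6 bp apart. The other 2 pooled calls in the window had signals of 18.7 and 17.0.

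The remaining bZIP genes with a thresholded peak had lower signals. At xbp-1 (WBGene00006959, chrIII:4193809-4195358, plus strand) the signal of the peak at chrIII:4193640-4193912 was 560 in the pooled list, 286 in replicate 1 and 266 in replicate 2, with the summit 33 bp upstream and a pooled rank of 202. At zip-1 (WBGene00006986, chrIII:12333745-12345384, plus strand) it was, at chrIII:12335529-12335696, 351 in the pooled list, 199 in replicate 1 and 149 in replicate 2, with a pooled rank of 559. The zip-1 summit was 1880 bp into the gene and 18 bp upstream of the start of the transcript Y75B8A.35b.3. At atfs-1 (WBGene00013878, chrV:14193663-14197700, plus strand) the signal of the peak at chrV:14193489-14193663 was 289 in the pooled list, 137 in replicate 1 and 157 in replicate 2, 46 bp upstream, with a pooled rank of 863. The atfs-1 peak was the only one of the 8 strongest thresholded peaks that was higher in replicate 2, and its replicate summits lay farthest apart, at 80 bp.

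zip-10 (WBGene00012101, chrV:11650079-11650762, minus strand) had 1 call, 87 bp upstream, that did not pass the threshold. Its signal was 46.4 in the pooled list, 25.2 in replicate 1 and 21.3 in replicate 2, with a pooled rank of 8953 and a −log10 q-value of 2.31. The call was present in both replicates.

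The 2 response genes lay far apart in rank. irg-2 (WBGene00016783, chrV:4042181-4043601, plus strand) had a peak at chrV:4041892-4042419 with a signal of 1540 in the pooled list, 868 in replicate 1 and 671 in replicate 2 (mean 770 ± 139, SD, n = 2), and ranks of 16, 14 and 17. irg-1 (WBGene00015574, chrV:3523587-3524679, plus strand), the gene that reports ZIP-2 activity, had 33.4 in the pooled list, 15.4 in replicate 1 and 15.6 in replicate 2. That call, 161 bp upstream of irg-1, ranked 12513 in the pooled list and did not pass the threshold. The irg-2 summit was 114 bp upstream of irg-2 but only 46 bp upstream of C49G7.10 on the other strand, and 1865 bp upstream of phat-3, so the peak does not belong to irg-2 alone.

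**Figure D2:**
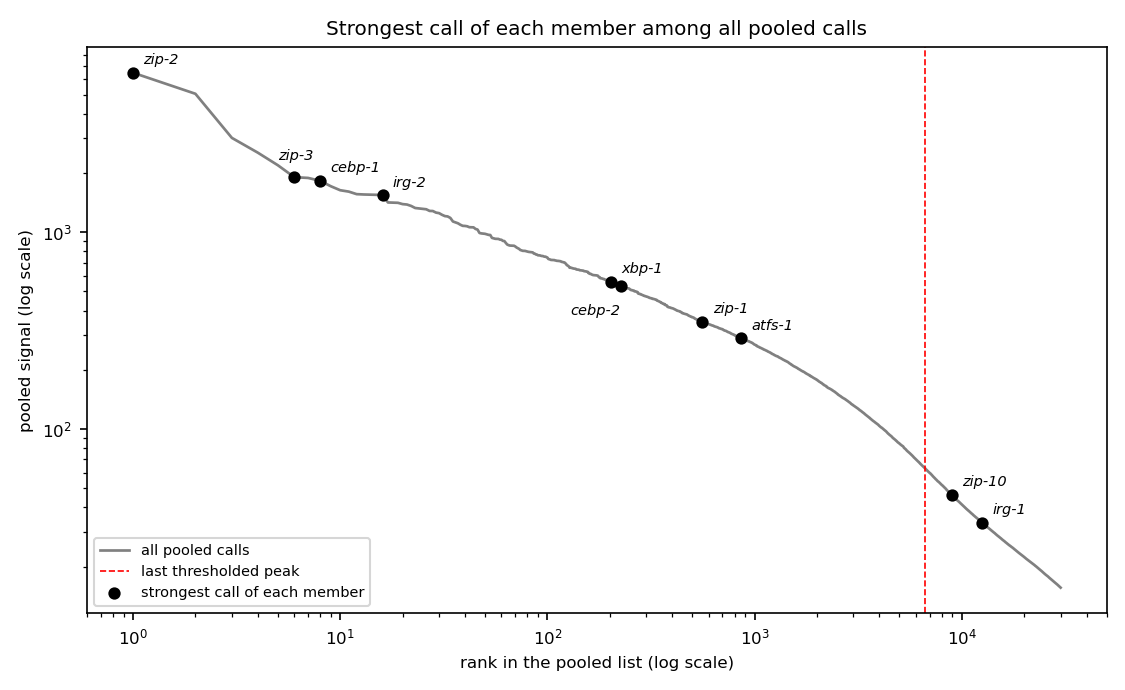
Pooled signal (log scale) against rank in the pooled list (log scale) for all 30000 calls (line) and the strongest call of each of the 10 genes (points). zip-2, zip-3, cebp-1 and irg-2 lie at ranks 1, 6, 8 and 16, and zip-10 and irg-1 lie beyond the last thresholded peak (dashed line).

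The plot of signal against rank places the 10 genes in 3 ranges. The top range was ranks 1 to 16 with zip-2, zip-3, cebp-1 and irg-2, and the next was ranks 202 to 863 with xbp-1, cebp-2, zip-1 and atfs-1. zip-10 and irg-1 formed the last. Neighbouring ranks differed little in signal below the top. The zip-3 peak lay between peaks nearest K02D3.1 (2190) and W02H3.3 (1888), and the cebp-1 peak between those nearest W02H3.3 (1888) and M163.11 (1714). The irg-2 peak lay between peaks nearest F17C11.26 (1549) and nspc-17 (1417), in pooled signal. Given the differences between replicates, the order of zip-3, cebp-1 and irg-2 among themselves is only partly set. Signals in replicate 1 were 1143 at zip-3, 959 at cebp-1 and 868 at irg-2, and in replicate 2 they were 781, 871 and 671 in the same order of genes. irg-2 was thus the lowest of these genes in both replicates, while zip-3 and cebp-1 changed places.

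Just inside the threshold, the lowest signals in these windows were 66.7 at cebp-2 and 69.1 and 75.7 at zip-3. Just outside it were 51.1 at zip-3, 48.3 at zip-2, 47.2 at xbp-1 and 46.4 at zip-10. No thresholded peak had a signal below 63.4.

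cebp-2 (WBGene00016754, chrI:6253082-6253584, plus strand), the gene of the ZIP-2 partner, had a peak at chrI:6252837-6253117 with its summit 108 bp upstream and a signal of 532 in the pooled list, 305 in replicate 1 and 228 in replicate 2. Its pooled rank was 226. The same summit was 727 bp upstream of lpd-2, which starts 116 bp after the end of cebp-2 on the same strand. A weaker thresholded summit of 66.7, the lowest in the 10 windows, lay 1712 bp upstream of cebp-2 and within the neighbouring gene cof-2.

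Signals of the replicates were close for most of these peaks, with the widest gap in rank at atfs-1, which ranked 1159 in replicate 1 and 619 in replicate 2. For the strongest peak of the 8 genes with a thresholded one, the median log2 of replicate 1 over replicate 2 was 0.26 with an SD of 0.24, and the summits were a median of 7 bp apart. For all 6593 thresholded peaks with a call in both replicates the median was 0.31 with an SD of 0.49, and the summits were a median of 21 bp apart. Replicate 1 was thus higher for most peaks of the data, not only here. The 8 peaks also had higher signals than most, with a median of 1050 against 122, and precision at different signals was not compared.

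**Figure D3:**
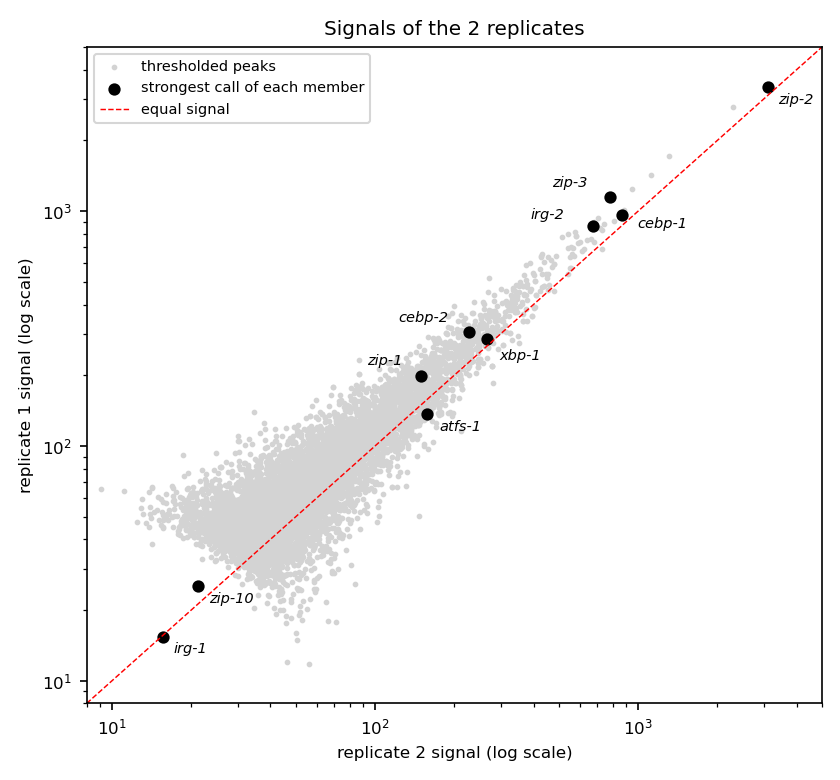
Signal in replicate 1 against signal in replicate 2 (both log scale) for thresholded peaks (grey) and for the strongest call of each of the 10 genes (black), with a dashed line at equal signal. zip-2 stands at the top with 3380 and 3104, and atfs-1 and irg-1 are the genes on the replicate 2 side of the line.

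The sequences at the summits were searched for 12 motifs on both strands, in windows of 100 bp each side of the summit (201 bp). Counts are of the 8 genes with a thresholded summit, by the strongest such summit of each gene only. The share of all 6626 thresholded windows of that length follows each count. The C/EBP palindrome TTGCGCAA was in 0 of 8 (0.830% of all windows) and the PAR-type bZIP site TTACGTAA in 0 of 8 (0.181%). The loose C/EBP form TTNCNNAA was in 6 of 8 (45.4%), and the core ACGT in 4 of 8 (44.6%). The cAMP response element TGACGTCA was in 1 of 8, xbp-1 (1.74%). The AP-1 site TGANTCA was in 1 of 8, cebp-1 (5.61%). The joint C/EBP and ATF site TGATGCAA was in 1 of 8, zip-3 (2.79%). The E-box CACGTG (8.92%), the nuclear receptor element AGGTCA (7.29%) and the SKN-1 site ATGATNAT (5.48%) were each in 0 of 8. Weaker thresholded summits lie outside these counts. Among them, the window of the zip-3 summit 617 bp into the gene held TGACCT, the complement of AGGTCA. The windows of the second zip-2 peak and of the zip-3 summit 869 bp upstream held TGATGCAA or its complement. Both of these windows also held the loose C/EBP form. The GATA site TGATAA was in 4 of 8 (15.2%) and GAGAGA in 3 of 8 (44.0%). The loose form contains the palindrome and the PAR site, and the response element, the PAR site and the E-box contain the core ACGT.

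After the sequences had been read, 2 further forms were searched. The palindrome with at most 1 mismatch was in 5 of the 8 genes, zip-2, cebp-1, atfs-1, xbp-1 and irg-2, against 13.0% of all thresholded windows and 9.13% of the 23374 pooled calls below the threshold. The form TTTCGCAA alone was in 3 of 8, cebp-1, xbp-1 and irg-2, against 4.38% and 1.84%. With the strongest pooled call of zip-10 and irg-1 added, 8 of 10 genes held either TGATGCAA or the palindrome with at most 1 mismatch. The share of all thresholded windows with either was 15.4%. zip-1 and cebp-2 held neither. Because these forms were picked from these very sequences, the counts are a description and carry no test, and a match does not show which protein binds there.

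The matches lay close to the summits in the strongest peaks. In the intronic zip-2 window TTGTGCAA ran from 21 to 28 bp after the summit, in the direction of transcription. TTGCATCA at zip-3 ran from 5 to 12 bp after the summit, and TTTCGCAA at cebp-1 from 12 to 19 bp after it. At irg-2 a pair of matches preceded the summit, TGGCGCAA and then TTTCGCAA, with TTTCGCAA ending 10 bp before it. At irg-1 TTTCGCAA lay 61 to 68 bp after the summit of the weak call, which is 100 to 93 bp upstream of the gene start. Over all thresholded windows, 61.3% of 191 TGATGCAA matches had their centre within 30 bp of the summit, as had 40.4% of 941 matches to the palindrome with at most 1 mismatch. GC content of the windows was 48.8% at zip-2, 37.3% at zip-3, 57.7% at cebp-1 and 35.3% at irg-2, on either side of the median of 42.8% for all thresholded windows.

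**Figure D4:**
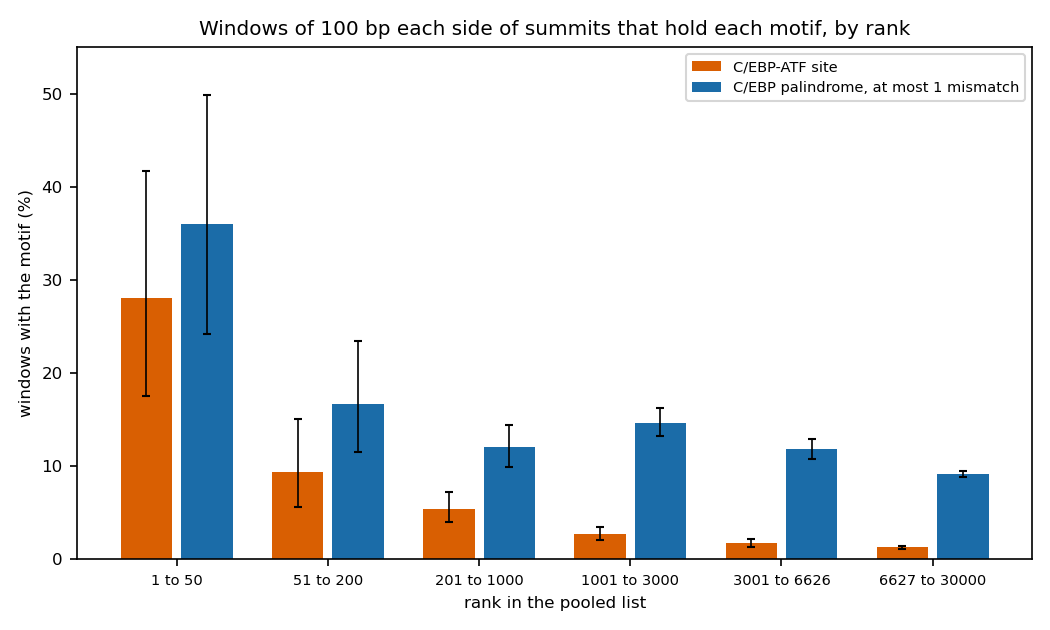
Share of 201 bp summit windows (%) that hold the joint C/EBP and ATF site or the C/EBP palindrome with at most 1 mismatch, by rank in the pooled list, with 95% Wilson intervals as bars. At ranks 1 to 50 the shares are 28.0% and 36.0%, and below the threshold 1.27% and 9.13%.

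The plot of motif share by rank shows that such sites were not limited to these genes. Among the 50 strongest peaks 14 held TGATGCAA (28.0%, 95% Wilson interval 17.5 to 41.7), against 9.33% at ranks 51 to 200, 5.38% at ranks 201 to 1000 and 1.27% below the threshold. The palindrome with at most 1 mismatch was in 36.0% of the 50 strongest (24.1 to 49.9), 16.7% at ranks 51 to 200, 12% at ranks 201 to 1000, 14.65% at ranks 1001 to 3000 and 11.8% at ranks 3001 to 6626, so its share did not fall at every step. Among the 20 strongest peaks 12 held either form, against 15.4% of all thresholded windows. Those 12 include the peaks of zip-2, zip-3, cebp-1 and irg-2. The mismatch form was picked from sequences that include these, and they were not taken out of the shares at the top ranks. The intervals cover counting error only, and windows of overlapping peaks share sequence.

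Related genes from 6 lists were examined in the same way. Of 21 other bZIP genes 14 had a thresholded summit (66.7%), with a median strongest signal of 210 among those 14, against 8 of the 10 genes with a median of 1050 and 28.0% of all coding genes with a median of 143. The strongest was zip-9, whose window held a summit of 1549 in the pooled list, 880 in replicate 1 and 664 in replicate 2. That summit lay 1763 bp upstream of zip-9 and was the one nearest F17C11.26. Next was jun-1, an AP-1 subunit gene (383, 109 bp upstream). Then came let-607, a CREBH-type gene (374, 5977 bp into the gene), and skn-1, the oxidative stress regulator (326, 3121 bp into the gene). Gene length, for which the counts were not adjusted, was 11507 bp at let-607 and 9346 bp at skn-1. One of the 1000 strongest peaks lay in the windows of 8 of the 10 genes and of 6 of the 21 others, against 5.76% of all coding genes. The 10 genes were picked for high peaks, so nothing is read from how their values differ from those of the 21.

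Of the 6 other infection response genes, irg-3 to irg-8, 0 had a thresholded summit, against 28.0% of all coding genes. 4 of them had a pooled call, the highest at irg-4 with a signal of 60.3, and irg-5 and irg-6 had none. Among these genes irg-2 was therefore the only one with a thresholded peak, and that summit is shared with C49G7.10. In the PMK-1 p38 kinase pathway of innate immunity 7 of 8 genes had a thresholded summit, with a median of 115. The median of all coding genes with a thresholded summit was 143. Windows run to the gene end, and the counts were not adjusted for gene length, which was 17554 bp at vhp-1 and 32053 bp at tir-1. The highest were the phosphatase gene vhp-1 (341, 3167 bp into the gene) and the kinase gene nsy-1 (159, 1884 bp upstream). The adaptor gene tir-1 (150, 27938 bp into the gene) and the kinase gene sek-1 (115, 1800 bp upstream) followed. In its window pmk-1 itself had no call.

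In the DLK-1 and KGB-1 kinase pathways upstream of CEBP-1, 6 of 9 genes had a thresholded summit, with a median of 250. For this list and the next ones, the values of all coding genes were 28.0% and a median of 143. The kinase genes mlk-1 (279), mkk-4 (253), mak-2 (251) and kgb-1 (250) were highest, and pmk-3, svh-1 and rpm-1 stayed below the threshold. In the mitochondrial unfolded protein response, where ATFS-1 and ZIP-3 act, 8 of 11 genes had one, with a median of 187. The chaperonin gene hsp-60 had a signal of 1077 in the pooled list, 539 in replicate 1 and 541 in replicate 2, at rank 40 and 566 bp upstream. The protease gene clpp-1 (243, 1691 bp into the gene), the chaperone gene hsp-6 (219) and the import gene timm-23 (216) followed. In the endoplasmic reticulum response, where XBP-1 acts, 6 of 11 genes had a thresholded summit, with a median of 402. The chaperone gene hsp-3 (653), the kinase gene pek-1 (510), enpl-1 (405) and the calreticulin gene crt-1 (400) were highest, while hsp-4, a standard target of XBP-1, had only a call of 32.0 below the threshold.

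**Figure D5:**
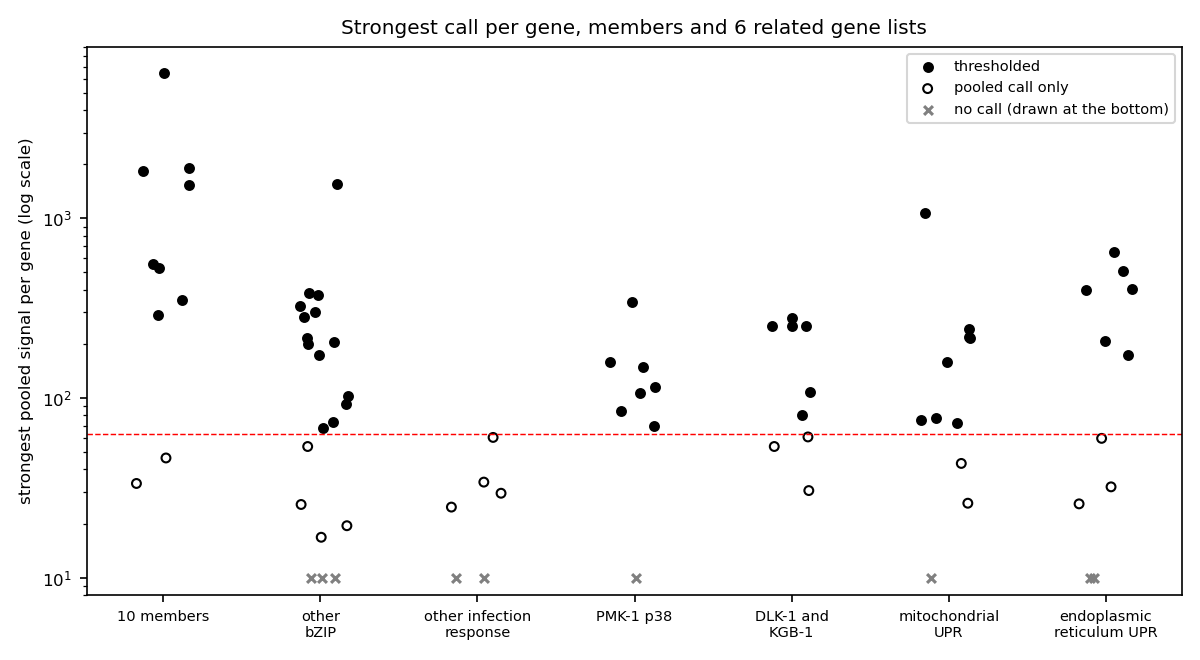
Strongest pooled signal per gene (log scale) for the 10 genes and the 6 related lists, with filled circles for thresholded summits, open circles for pooled calls below the threshold and crosses for genes with no call. The dashed line is the lowest thresholded signal, 63.4, and among the related genes only zip-9 and hsp-60 exceed 1000.

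In the plot of the gene lists zip-2 is the highest point, and zip-9 is level with irg-2. By the strongest thresholded summit, 6 of the 8 genes held either form of site, as did 3 of 14 other bZIP genes (zip-9, let-607 and atf-2), 1 of 7 genes of the PMK-1 pathway and 0 of 6 of the DLK-1 and KGB-1 pathways. In the mitochondrial list it was 6 of 8 (hsp-60, clpp-1, hsp-6, timm-23, ubl-5 and dve-1), and in the endoplasmic reticulum list 2 of 6 (pek-1 and ire-1). The share of all thresholded windows with either form was 15.4%. The mismatch form was picked from the sequences of the 10 genes, so their count cannot be compared with those of the other lists. No difference between the lists was tested.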

How the data were processed

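Per the labels and the text deposited with the samples, the authors made relaxed lists of peaks and background for each replicate and for the pooled alignments against a control, and a list thresholded on the irreproducible discovery rate. The deposited signal per peak and the deposited −log10 q-value were used as given, with the summit from the deposited offset. For the aligner, caller, threshold and depth, values were not given in the sources used here. Lists in ce11 were used and those in ce10 were not.

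Summits were assigned to genes of the WBcel235 annotation (Ensembl release 115) from 2 kb upstream to the gene end. Calls of the replicates were matched to pooled peaks where they shared at least 1 bp, and the strongest was kept. Coordinates are 1-based. There was 1 group of 2 replicates, so no test was made and no p-value is given. Genes named were the 10 chosen ones, up to 4 of each list with the strongest thresholded summit, genes sharing a summit with them, and genes at neighbouring ranks. Genes or counts beyond that rule (hsp-4, pmk-1, irg-4 and others without a thresholded summit, and atf-2, ubl-5, dve-1 and ire-1 for their motifs) were named after their values were seen. The 10 genes, the lists and the motifs were chosen with earlier results of these data known, and the forms with a mismatch after the sequences had been read. Of 22 other bZIP names 21 were found in the annotation. Alternatives were other windows, overlap in place of summits, 1 replicate alone, only the 1000 strongest peaks, merged peaks and other motif windows. The functions were tested on simulated data. Python 3.11.15, numpy 2.4.6, pandas 2.3.3, scipy 1.17.1, statsmodels 0.14.6 and matplotlib 3.10.9 were used.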

Additional observations from a re-analysis of the deposited data

How the results depend on the processing

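The alternatives were windows of 1 kb or 5 kb upstream, overlap in place of summits, replicate 1 or replicate 2 alone, and only the 1000 strongest peaks. Counted summits were thresholded ones, except for 1 replicate alone, which has no thresholded list. There the counts match the relaxed calls of that replicate down to rank 6626. Under each alternative 8 of the 10 genes had a counted summit, and zip-10 and irg-1 were the ones without it. The strongest summits of those 8 ranked 863 or better in the pooled list, and those of zip-10 and irg-1 ranked 8953 and 12513. These alternatives could therefore hardly change the count, and nothing is read from its stability. The share of all coding genes with a counted summit was 23.1%, 37.8%, 29.3%, 27.8%, 27.7% and 5.76% in that order. Counted summits in the windows numbered 9 to 17 under these alternatives (11 and 14 with 1 replicate left out), against 12. The 14 of replicate 1 include the zip-2 coding exon call, at rank 6116 there, which did not pass the threshold. A rank counted as moved when it shifted by more than 1 SD of its 2 replicate ranks, and a count when it shifted by more than 1.5 times. By that measure 8 of 63 alternative values moved, but a wide spread between replicates makes it lenient. The rank of atfs-1 was 1159 without replicate 2 and 619 without replicate 1, against 863, the widest shift in rank, and it passed as unmoved. Without replicate 1 the ranks were 9 for zip-3, 7 for cebp-1 and 682 for zip-1, and without replicate 2 the rank of xbp-1 was 241. With 50 bp each side of the strongest summit, 0 genes held the AP-1 site, 1 the core ACGT and 2 the GATA site. With 150 bp, 1 held the SKN-1 site. The search for mismatch forms and for the calls of zip-10 and irg-1 was added after the data were seen. No paired analysis was possible because there was 1 group and no test. The signal scale and depth are unknown, so small differences in signal cannot be weighed, and low calls cannot be told from background.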
